A study of Mus musculus with 10 samples.

Results

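Genes for the breakdown of fatty acids and the handling of acyl-CoA were examined in murine leukaemia cells with reduced Meis1. The set lists 36 genes, of which 35 were measured among 18193 genes on the arrays. Each gene was read through its brightest probe set, that with the highest mean log2 level over all 10 arrays, among probe sets with a single symbol in the platform annotation. Ech1, Acot13 and Crot were selected on their measured log2 change between shRNA and control samples. Their values in that comparison are therefore given as a description, without a p-value. Where counts of called members include them, their part of the count is a description too. The other 33 were listed for their place in the pathway. Acsl1 is not analysed here.

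The cells were Mll-AF9 leukaemia cells of line 4166, in which a fusion of Mll with AF9 transforms myeloid progenitors. Both groups received a lentivirus, puromycin selection and culture in IMDM with 15% FBS and 2 ng/ml IL-3, and both were read at 48 h. The control group (n = 5) carried the empty vector and the other group (n = 5) a single construct with an shRNA against Meis1, a homeodomain transcription factor. Control and shRNA samples are paired by number in the labels. All come from 1 line, and nothing in the labels says whether the samples of a group were separate cultures, so the spread between them may be technical in part. As these are bulk samples, fewer cells of a type and less RNA per cell cannot be told apart.

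Long-chain fatty acids are activated to acyl-CoA by synthetases, passed into mitochondria as carnitine esters and shortened there in a repeating spiral of dehydrogenation, hydration, further dehydrogenation and thiolysis. Very long and branched chains are first shortened in peroxisomes, which pass medium-chain products on to mitochondria, again as carnitine esters. Unsaturated chains need auxiliary isomerases and reductases that shift or remove double bonds, and thioesterases split acyl-CoA back into free fatty acid and CoA. Some acute myeloid leukaemia cells are known to draw on fatty acid oxidation for energy.

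Meis1 transcript was 346 ± 56.3 (SD, n = 5) in the controls and 165 ± 40.2 (SD, n = 5) in the shRNA samples, lower in all 5 pairs, which checks the labels. Of 12 markers of myeloid progenitors, 10 lay above a log2 level of 5, with Mpo, Elane, Prtn3, Ctsg, Cebpa and Spi1 among them. In that list 2 markers were called lower with the shRNA, Elane (neutrophil elastase, change -0.40, SE 0.08) and Ptprc (CD45, change -0.35, SE 0.07), with limma's adjusted p at 0.0338 and 0.0379, 0 were called higher, and 7 of 12 had an unadjusted p under 0.05. Its mean log2 level ran from 8.25 to 8.90 in the controls and from 8.33 to 8.83 in the shRNA samples. None of the 8 measured erythroid and megakaryocytic markers or the 8 measured lymphoid markers lay above a log2 level of 5, and none was called by limma (2 and 0 at an unadjusted p under 0.05). Of 9 mast, basophil and eosinophil markers and 8 fibroblast and stromal markers, only Mcpt8 and Thy1 lay above that level. None of these was called by limma (2 and 2 at an unadjusted p under 0.05). Of 8 mature macrophage markers, Lyz2 and Adgre1 were called higher with the shRNA and 6 were not called (4 of the 8 at an unadjusted p under 0.05 by limma). Adgre1 was higher in 5 of 5 pairs and Lyz2 in 4. The mean log2 level of that list ran from 4.37 to 5.39 in the controls and from 4.83 to 5.39 in the shRNA samples. For Elane, Adgre1 and Lyz2 the groups overlapped. These 3 also differed between pair numbers (limma F test with the group taken out, adjusted p = 0.00121, 0.0191 and 0.0177). For Ptprc the groups did not overlap, and it did not differ between pair numbers by that test (adjusted p = 0.470). Gapdh and actin are read at both transcript ends, and the log2 ratio of the 3 prime end to the 5 prime end, here called the integrity ratio, was 0.28 ± 0.06 in the controls and 0.37 ± 0.02 in the shRNA samples (SD, n = 5), higher with the shRNA in all 5 pairs (exact two-sided sign-flip permutation p = 0.0625, the smallest that 5 pairs allow). The part of this ratio and of the progenitor and macrophage markers in the changes below was not tested beyond the fits with the ratio as a covariate.

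The 250 bases before the RefSeq start of Ech1 and Crot are shown because both genes fell and have a start in the RefSeq table. Those of Pecr and Eci2 are shown because these were the other members past the test threshold, in opposite directions. All run 5 prime to 3 prime on the strand of the gene, in build GRCm38.p6, at chr7:28825088-28825337 (plus strand) for Ech1, chr5:8997147-8997396 (minus strand) for Crot, chr1:72284322-72284571 (minus strand) for Pecr and chr13:34994145-34994394 (minus strand) for Eci2.
Ech1: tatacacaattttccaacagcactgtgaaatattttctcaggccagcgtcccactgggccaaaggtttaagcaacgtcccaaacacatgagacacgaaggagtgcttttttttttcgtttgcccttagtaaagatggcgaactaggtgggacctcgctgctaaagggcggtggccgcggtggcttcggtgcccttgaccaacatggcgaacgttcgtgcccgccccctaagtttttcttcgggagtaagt
Crot: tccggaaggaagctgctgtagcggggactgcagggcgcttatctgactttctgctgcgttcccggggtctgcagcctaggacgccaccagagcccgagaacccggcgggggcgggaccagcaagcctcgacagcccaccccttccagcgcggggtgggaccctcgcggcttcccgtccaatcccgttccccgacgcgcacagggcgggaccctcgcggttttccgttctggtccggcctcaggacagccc
Pecr: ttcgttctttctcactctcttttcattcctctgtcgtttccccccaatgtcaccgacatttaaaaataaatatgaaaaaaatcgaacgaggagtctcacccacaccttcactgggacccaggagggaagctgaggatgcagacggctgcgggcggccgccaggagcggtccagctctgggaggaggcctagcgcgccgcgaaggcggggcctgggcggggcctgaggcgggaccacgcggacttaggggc
Eci2: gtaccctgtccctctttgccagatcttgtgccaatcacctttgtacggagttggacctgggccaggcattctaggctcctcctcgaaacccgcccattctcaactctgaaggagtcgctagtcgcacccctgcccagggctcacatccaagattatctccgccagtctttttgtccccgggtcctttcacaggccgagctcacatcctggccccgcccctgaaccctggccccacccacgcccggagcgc
None of these stretches holds any of 3 motifs searched on both strands, so no base is in capitals. The motifs were TGACAG, a core bound by TALE homeodomain proteins such as Meis1, TGATTNAT, bound by PBX with HOX proteins, and the direct repeat element of PPAR with RXR. The 26 bases from 25 to 50 after the start of Ech1, at chr7:28825362-28825387, hold TGACAG, in capitals here.
Ech1 after the start: tggctaccgcgaTGACAGtttccagt

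In windows of 300 bases (250 before and 50 after each start), TGACAG was found in 4 of 30 member windows (29 members had a window), those of Ech1, Acot8, Acsl5 and Etfa. That is 13.3% of them, against 19.2% of all 32851 windows. TGATTNAT was found in 1 member window, that of Eci1 (3.33%, against 3.22% of all windows), and the PPAR element in 0 member windows, against 0.0396% of all. GC content of the 250 bases was 51.2% for Ech1, 69.6% for Crot, 60.0% for Pecr and 61.2% for Eci2, within a range of 49.6% to 75.6% over the member windows. These are letters in a window and not sites.

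With the Meis1 shRNA, 4 of 35 measured members fell, 1 rose and 30 did not pass the threshold of an adjusted p of 0.05 (limma, paired by sample number, Benjamini-Hochberg over all genes). Over all 18193 genes, 4.06% passed, 2.98% lower and 1.08% higher. Ech1, Acot13 and Crot, chosen for this fall, make up 3 of the 4. Among the 32 other measured members 1 was lower, Pecr, and 1 higher, Eci2, which is 6.25% of them, against that 4.06%. This background is not matched by level, as 11472 of the 18193 genes had a mean log2 level below 5, against 5 of these 32 members. At an unadjusted p under 0.05 by limma were 9 of the 32 and 3273 of the 18193 genes. The median log2 change (shRNA minus control) was 0.04 over the 35 members, 0.04 without the 3 chosen genes and 0.00395 over all genes. Of the 35, Ech1, Acot13 and Crot changed by more than 1.5-fold downward, as did 2.08% of all genes, and 0 changed by more than 1.5-fold upward, against 0.61% of all genes. The 32 others lay between -0.49 and 0.39 on the log2 scale.

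Without regard to any test, every shRNA sample was below every control for 5 members (Ech1, Acot13, Crot, Pecr and Acsl3) and above every control for 3 (Slc25a20, Acadm and Eci2). As 3 of the 5 were chosen for their fall, the count to read is that of the 32 other members, 2 downward (6.25%) and 3 upward (9.38%). Such separation was seen downward in 3.45% and upward in 1.53% of all genes. All 5 pairs moved in 1 direction for 14 members. Outside the 3 chosen genes this was 11 of 32, against 17.8% of all genes. These shares of the 32 lay above those of all genes, which are not matched by level, and the difference was not tested. Of the 30 members that did not pass, 27 had a 95% interval of the change (not adjusted for the number of genes) that stayed within 1.5-fold in both directions. The intervals of Acsl3, Slc25a20 and Abcd2 reached past it.

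**Figure D1:**
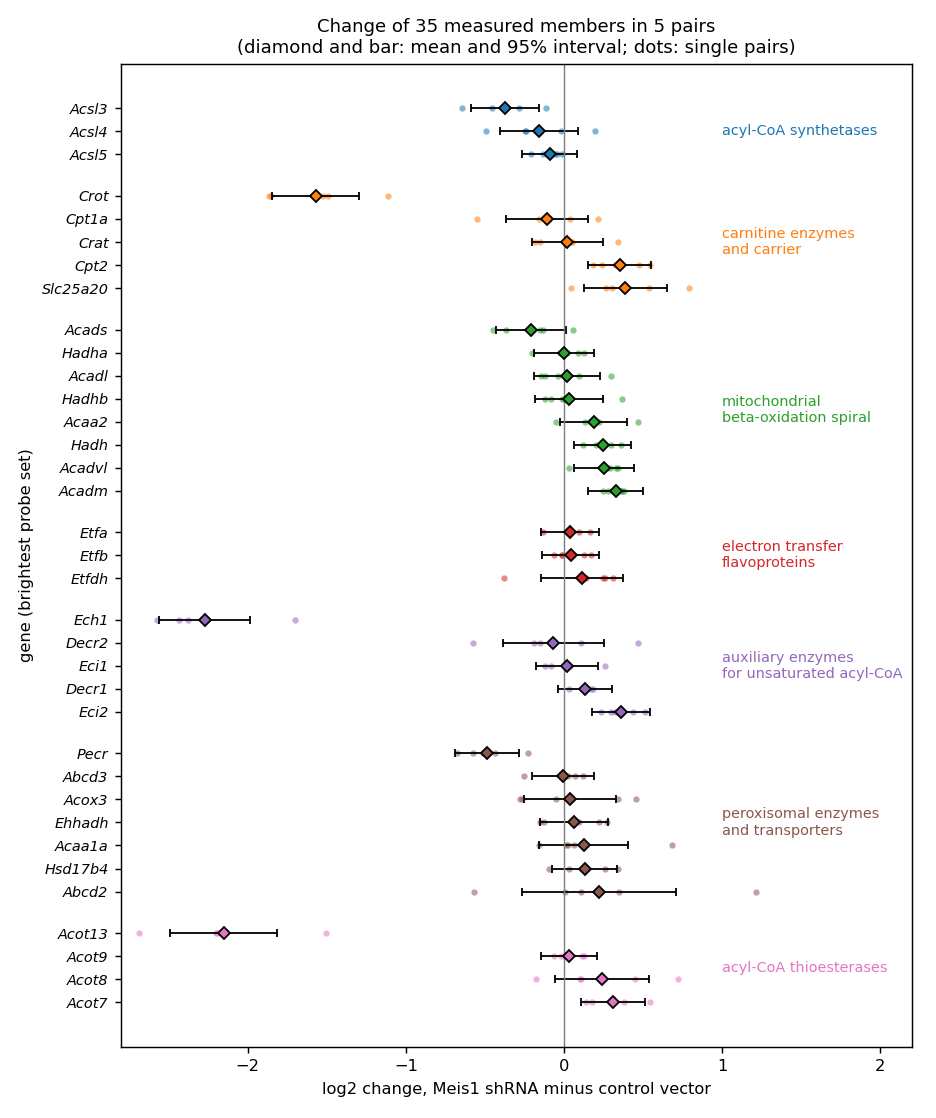
Log2 change of each of the 35 measured members, shRNA minus control, by role in the pathway. Diamonds and bars are the mean and 95% interval of the paired fit (n = 5 pairs) and dots are single pairs. Ech1, Acot13 and Crot stand at -2.27, -2.15 and -1.57, and every other member lies between -0.49 and 0.39.

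**Figure D2:**
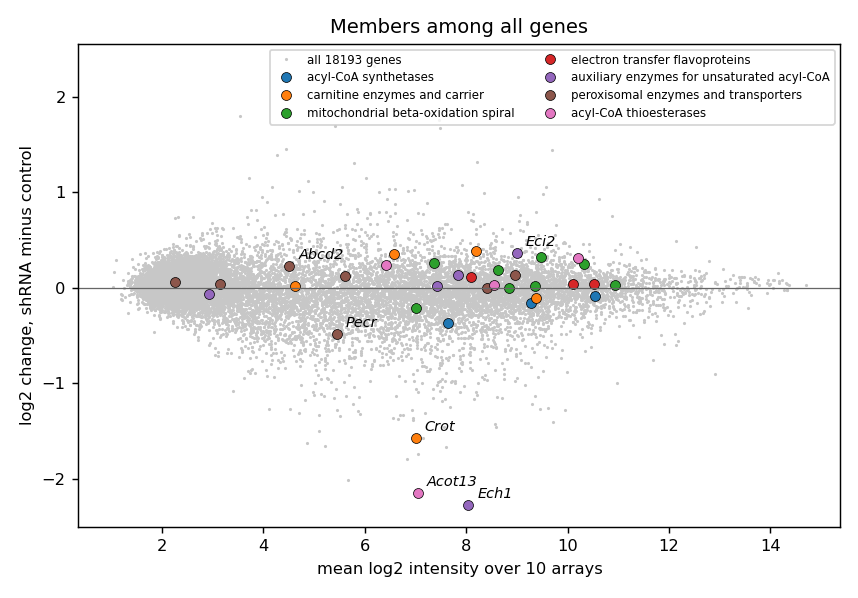
Mean log2 intensity over 10 arrays (horizontal) against log2 change, shRNA minus control (vertical), for all 18193 genes (grey) and the members (coloured by role). Most members are bright, with 5 of 35 below a mean log2 level of 5, against 11472 of the 18193 genes. Those other than Ech1, Acot13 and Crot lie within the band of most genes.

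The carnitine enzymes pass acyl groups between CoA and carnitine. Crot, the carnitine octanoyltransferase of peroxisomes, handles medium-chain products there. Its intensity in control samples 1 to 5 was 263.1, 219.3, 195.3, 220.2 and 212.8, and in their shRNA partners it was 91.29, 60.20, 69.53, 101.7 and 58.80. Every shRNA sample was below every control. The group means were 222 ± 25.0 and 76.3 ± 19.2 (SD, n = 5), a change of -1.57 on the log2 scale (SE 0.12), 2.97-fold lower. The pair differences were -1.53, -1.87, -1.49, -1.11 and -1.86, smallest in pair 4. Another Crot probe set had a mean log2 level of 1.25, below the 1.83 to 2.03 of the unspiked bacterial Trpn controls, and changed by -0.07. Averaged over both probe sets the Crot change was -0.82.

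The other carnitine genes did not follow Crot. Slc25a20, the carrier that moves acylcarnitines across the inner mitochondrial membrane, read 272.1, 264.4, 222.6, 245.1 and 272.0 in the controls and 335.6, 318.0, 384.4, 356.4 and 281.1 with the shRNA. The groups did not overlap, with every shRNA sample above every control. Its change of 0.39 (SE 0.11, adjusted p = 0.11 by limma) did not pass, with pair differences from 0.05 in pair 5 to 0.79 in pair 3. Cpt2, which turns acylcarnitine back into acyl-CoA inside mitochondria, was higher in all 5 pairs with a change of 0.35 (SE 0.09, adjusted p = 0.0635). Cpt1a, the regulated entry step at the outer mitochondrial membrane, and Crat, which acts on acetyl groups, did not pass. Crat was dim, at a mean log2 level of 4.62. Cpt1a was read by 3 probe sets, which changed by -0.11, 0.03 and -0.24.

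Auxiliary enzymes act on double bonds. Ech1, a dienoyl-CoA isomerase of mitochondria and peroxisomes, read 558.4, 501.5, 599.2, 654.2 and 587.3 in control samples 1 to 5. The shRNA partners read 103.1, 154.4, 115.3, 109.9 and 121.3, so that the highest shRNA sample, from pair 2, was far below the lowest control. The means were 580 ± 56.0 and 121 ± 19.9 (SD, n = 5), 4.83-fold lower, and the log2 change was -2.27 (SE 0.13). Pair differences ran from -1.70 in pair 2 to -2.57 in pair 4. Ech1 has a single probe set on the array.

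Eci2, an enoyl-CoA isomerase also found in both organelles, moved the other way. The controls read 458.7, 476.1, 436.1, 435.4 and 444.2 and the shRNA samples 573.4, 678.0, 511.8, 590.3 and 545.1, without overlap. It rose 1.28-fold (log2 change 0.36, SE 0.08, adjusted p = 0.0478 by limma) in 5 of 5 pairs. This call was lost with any 1 pair left out (adjusted p from 0.0629 to 0.173), and the change was 0.32 with the integrity ratio as a covariate (adjusted p = 0.833). Decr1, the mitochondrial dienoyl-CoA reductase, changed by 0.13 (SE 0.07, adjusted p = 0.423), and Decr2, its peroxisomal counterpart, by -0.07 (SE 0.14, adjusted p = 0.861) at a dim mean log2 level of 2.94. Eci1, the mitochondrial isomerase most like Eci2 in role, did not pass, with control values from 157.9 to 185.3 and shRNA values from 158.7 to 194.4.

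**Figure D3:**
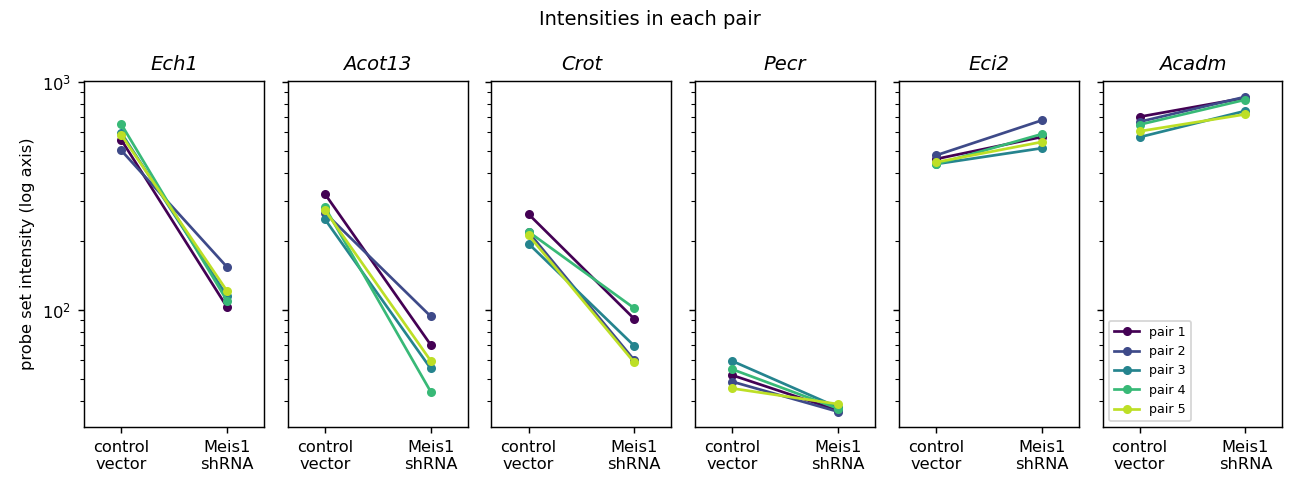
Probe set intensity (log axis) of Ech1, Acot13, Crot, Pecr, Eci2 and Acadm in the control and shRNA sample of each of the 5 pairs, joined by a line. Ech1 drops from between 501.5 and 654.2 to between 103.1 and 154.4, while Eci2 and Acadm are higher with the shRNA in every pair.

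Among 4 thioesterases, Acot13, which acts on long-chain acyl-CoA and associates with mitochondria, was the other deep fall. Its control samples read 323.2, 266.9, 250.2, 282.6 and 274.2 and their partners 70.41, 93.84, 55.42, 43.87 and 59.92. The groups were far apart, and as for Ech1 the highest shRNA value was that of sample 2. The means were 279 ± 27.2 and 64.7 ± 18.9 (SD, n = 5), 4.45-fold lower, with a log2 change of -2.15 (SE 0.15) and pair differences from -1.51 in pair 2 to -2.69 in pair 4. Acot7, a cytosolic thioesterase, read between 937.9 and 1288 in the controls and between 1060 and 1471 with the shRNA, higher in all 5 pairs (change 0.31, SE 0.09, adjusted p = 0.102 by limma). Acot8, the peroxisomal form, changed by 0.24 (SE 0.13, adjusted p = 0.394), and Acot9, a mitochondrial form, did not pass. The 3 thioesterases other than Acot13 thus had estimates above 0, from 0.03 to 0.31, without a call.

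In the peroxisome, Pecr, a trans-enoyl-CoA reductase, fell. Control values were 51.72, 48.46, 59.68, 54.90 and 45.28, and shRNA values were 36.26, 35.79, 37.36, 36.91 and 38.63. The shRNA samples lay close together and below all controls. Pecr fell 1.40-fold (log2 change -0.49, SE 0.09, adjusted p = 0.0227 by limma), from 52.0 ± 5.59 to 37.0 ± 1.10 (SD, n = 5), in 5 of 5 pairs. Without pair 1, 2, 3 or 4 the adjusted p was 0.0861, 0.0699, 0.0864 and 0.103, and the covariate fit gave a change of -0.33 (adjusted p = 0.832). The call was also lost after quantile normalization (change -0.35, adjusted p = 0.0823). Another, dim probe set of Pecr changed by 0.07 (mean log2 level 2.80), and as the mean of both the change was -0.21 (adjusted p = 0.278).

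The other peroxisomal members did not pass. Hsd17b4, which carries both the hydratase and the second dehydrogenase of the peroxisomal spiral, changed by 0.13 (SE 0.09, adjusted p = 0.515). Abcd3, an importer of acyl-CoA in the peroxisomal membrane, read 296.2 to 379.3 in the controls and 283.3 to 386.6 with the shRNA, almost the same range. Acaa1a, the peroxisomal thiolase, Acox3, an oxidase for branched chains, and Ehhadh, the other bifunctional enzyme, did not pass either. Acox3 and Ehhadh were dim, at mean log2 levels of 3.14 and 2.25, where a fall could hardly show.

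Abcd2, a peroxisomal importer of very long-chain acyl-CoA, differed widely between pairs. It read 11.84, 10.72, 16.57, 22.13 and 91.03 in control samples 1 to 5 and 7.992, 10.79, 38.46, 28.14 and 98.08 with the shRNA. Pair 5 was the highest in both groups, and pairs 1 and 2 were the lowest in both. Pair number, a property that the choice of genes did not use, was tested with the group taken out, and Abcd2 was the only 1 of the 35 members to differ between pairs (F test of 4 block coefficients in limma, adjusted p = 0.00927), against 1.63% of all genes. Another Abcd2 probe set, the next brightest, gave an adjusted p of 0.0247 over all probe sets. Without pair 5 the call was lost (adjusted p = 0.216 by the same F test), and 0.43% of all genes then differed. It held with any other pair left out. Whether the loss came from pair 5 itself or from fewer samples was not tested. The change with the shRNA was 0.22 (SE 0.21, adjusted p = 0.663), from -0.57 in pair 1 to 1.21 in pair 3. Ech1, Acot13 and Crot did not differ between pairs by this test (adjusted p = 0.951, 0.646 and 0.490).

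**Figure D4:**
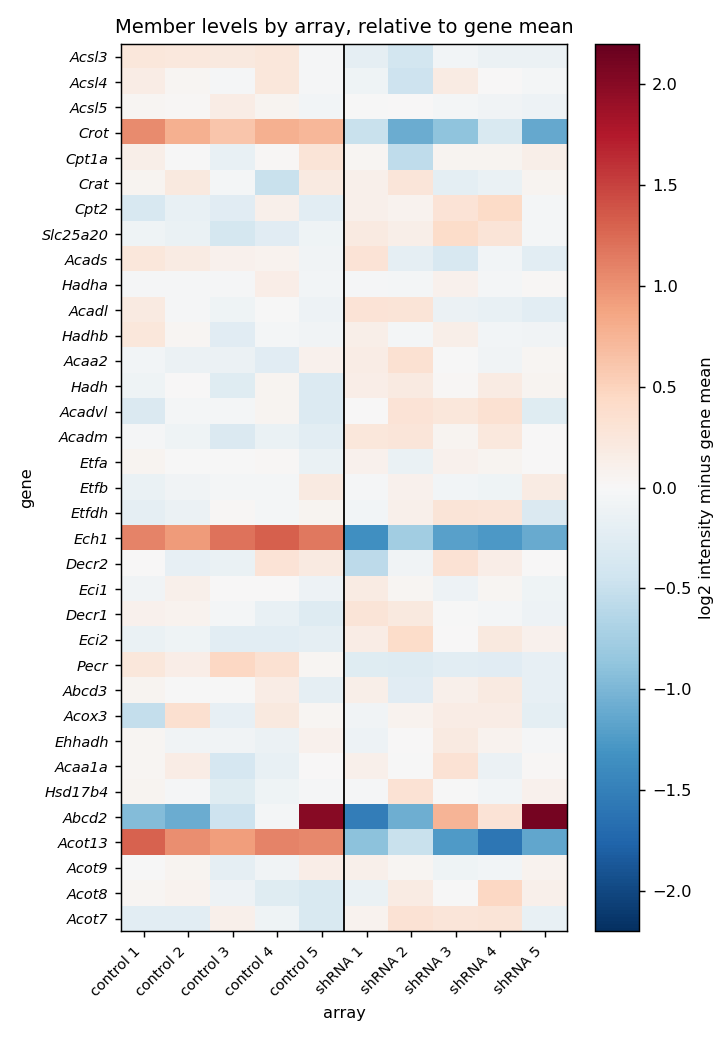
Log2 intensity of each measured member on each array minus the mean of that gene over the 10 arrays, with the 5 controls left and the 5 shRNA samples right of the line. Ech1, Acot13 and Crot change colour at the line, and Abcd2 is highest in pair 5 of both groups.

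No enzyme of the mitochondrial spiral passed, among 8 measured (3 at an unadjusted p under 0.05 by limma). Acadm, the medium-chain acyl-CoA dehydrogenase, read 703.2, 668.5, 572.3, 649.5 and 607.3 in the controls and 851.2, 860.3, 746.1, 835.2 and 720.9 with the shRNA. The groups did not overlap and the pair differences, from 0.25 to 0.38, were much alike. The change of 0.33 (SE 0.07, adjusted p = 0.0516 by limma) lay just outside the threshold. Acadvl, the very long-chain dehydrogenase, changed by 0.25 (SE 0.08, adjusted p = 0.145). The other 6 were Acadl and Acads, the long-chain and short-chain dehydrogenases, Hadha and Hadhb, the subunits of the trifunctional protein, Hadh, the hydroxyacyl-CoA dehydrogenase for shorter chains, and Acaa2, the thiolase. Hadha read 439.4 to 509.3 in the controls and 443.4 to 488.5 with the shRNA, so its ranges overlapped. Of the 8 changes, 7 were above 0, with a median of 0.11 and a range from -0.21 to 0.33.

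The electron transfer flavoproteins take electrons from the dehydrogenases to the respiratory chain. None of the 3 passed (0 at an unadjusted p under 0.05 by limma). Etfdh, the oxidoreductase that hands the electrons to ubiquinone, changed by 0.12 (SE 0.11, adjusted p = 0.675), and Etfb, the beta subunit of the carrier, by 0.04 (SE 0.08, adjusted p = 0.849). Etfa, the alpha subunit, read 1316 to 1515 in the controls and 1319 to 1554 with the shRNA.

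The 3 measured acyl-CoA synthetases had changes below 0 and none passed (1 at an unadjusted p under 0.05 by limma). Acsl3, a synthetase of the endoplasmic reticulum and lipid droplets, read 237.8, 234.6, 232.3, 235.4 and 196.0 in the controls and 173.6, 150.2, 190.9, 181.3 and 181.4 with the shRNA. All shRNA samples were below all controls, with the nearest values in pair 5 of the controls and pair 3 of the shRNA group. Its change was -0.37 (SE 0.09, adjusted p = 0.0707). Another Acsl3 probe set of moderate level changed by -0.45 (adjusted p = 0.315 over all probe sets). Acsl4, which prefers arachidonic acid, changed by -0.16 (SE 0.11, adjusted p = 0.509), and Acsl5, a form of mitochondria and endoplasmic reticulum, did not pass.

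The members had 63 probe sets, 59 of them for genes other than Ech1, Acot13 and Crot. Of these 59, 1 was lower, the brightest of Pecr, and 0 were higher at an adjusted p of 0.05 over 45037 probe sets, which is 1.69% against 2.48% of all probe sets. Eci2 had an adjusted p of 0.074 in that family. None of the 28 probe sets other than the brightest passed, and 10 of these had a mean log2 level above 5. Hadh illustrates the spread among probe sets, at 0.24, 0.30 and 0.83 from the brightest to the dimmest. In all, 16 members, Ech1 and Acot13 included, had a single probe set.

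Genes of neighbouring pathways were read in 5 lists, and 5 of 115 measured genes passed, 3 lower and 2 higher. That is 4.35% of them, near the 4.06% of all genes. Their median change was 0.00213, against 0.00395 over all genes. Fads1, the desaturase that makes arachidonic acid, fell deepest among them. It read 152.3, 169.4, 251.4, 255.7 and 181.3 in the controls and 80.53, 68.25, 92.90, 74.60 and 69.57 with the shRNA, a fall of 2.58-fold (log2 change -1.37, SE 0.12, adjusted p = 0.000981 by limma). It was the only called gene among 27 for fatty acid synthesis and desaturation (6 at an unadjusted p under 0.05). Pex13, a docking protein for import into the peroxisome, read 513.3, 460.7, 431.5, 481.3 and 328.6 in the controls and 250.4, 247.6, 246.7, 203.7 and 202.4 with the shRNA. It fell by 0.94 (SE 0.10, adjusted p = 0.00212), as the only called gene of 14 for peroxisome biogenesis and catalase. Whichever pair was dropped, both genes passed, and in the fit with the integrity ratio they changed by -1.19 and -0.66 without passing (adjusted p = 0.287 and 0.408). As means over a bright and a dim probe set they changed by -0.85 and -0.55.

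Of 28 further thioesterases, synthetases and transporters, Acss1, a mitochondrial acetyl-CoA synthetase, fell by 0.63 (SE 0.13, adjusted p = 0.0379) at a dim mean log2 level of 3.05. Acbd5, a peroxisomal membrane protein that binds very long-chain acyl-CoA, rose by 0.61 (SE 0.11, adjusted p = 0.0218). Among 23 genes of PPAR regulators and targets, Plin2, which coats lipid droplets, was the only called gene and rose by 0.52 (SE 0.11, adjusted p = 0.0443). No gene passed among 23 other fatty acid oxidation enzymes (3 at an unadjusted p under 0.05 by limma). The calls of these 3 genes were less stable than those of Fads1 and Pex13, as Acss1, Acbd5 and Plin2 passed with only 1, 2 and 1 of the 5 pairs left out in turn, and with the ratio as a covariate they were at -0.26, 0.44 and 0.16. Averaged over its probe sets Acss1 changed by -0.25 (adjusted p = 0.128) and Acbd5 by 0.36 (adjusted p = 0.082), and with a pseudocount Acss1 changed by -0.22 (adjusted p = 0.074), so that neither passed there. Plin2 did not pass without the replicate block (adjusted p = 0.0613) or with adjustment over all probe sets (adjusted p = 0.0597).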

How the data were processed

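Column-purified RNA was biotin-labelled in one cycle and hybridised to 10 Affymetrix arrays, per the labels' protocols. The deposited values are probe set intensities made with RMA (background correction, quantile normalization and probe set summary), per the submitters' processing notes, with version and settings not given in the sources used here. They lie between 1.30 and 32400 and so appear to be back on a linear scale. Large fold changes tend to be understated by RMA. Precision is limited by the number of arrays, and 0 pairs of arrays were identical.

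Intensities were log2-transformed without a pseudocount. After 64 control probe sets were left out, 45037 remained, of which 34945 had 1 gene symbol; all 35 measured members matched RefSeq (GRCm38.p6) by Entrez identifier. The table of all 18193 genes was fitted with limma 3.58.1 in R 4.3.3 (lmFit, eBayes), with sample number as a fixed block, two-sided, Benjamini-Hochberg over all genes. The labels state the pairing, and same-numbered samples deviated together from their group means (correlations of 0.310 to 0.600 over the 11215 probe sets whose mean log2 level exceeded 5). The fit was tested on simulated data. Members and lists were chosen with earlier results of these data known. Named in full are Ech1, Acot13, Crot, other members past the threshold, the 2 largest changes not past it in each role, and up to 4 called genes of each neighbouring list. Members also shown by level, without a change, were picked after their values were seen. Promoter sequences are from RefSeq (GRCm38.p6). Alternatives covered pairing, pairs left out, scaling, probe set choice, dim genes, pseudocount, variance model, array weights, test family and the integrity ratio.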

Additional observations from a re-analysis of the deposited data

Results flagged for a closer look

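Within groups of 5 arrays, 4 of 80 gene and group combinations had a sample whose gap to its nearest neighbour, as a share of the range of the group, was above Dixon's 95% critical value of 0.71. Chance alone flags about 1 in 20, or 4 of 80, so the number is what chance gives. Acsl3 was low in control 5 (share 0.879), at a log2 level of 7.61 against 7.86 to 7.89 in the other controls. Cpt1a was low in shRNA sample 2 (0.861), at 8.81 against 9.41 to 9.50. Hadha was high in control 4 (0.822), at 8.99 against 8.78 to 8.82. Plin2, a lipid droplet gene, was high in control 5 (0.813), at 9.57 against 8.91 to 9.04.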

How the results depend on the processing

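Ech1, Acot13 and Crot, chosen for falling, could hardly turn. They changed by -2.42 to -2.01, -2.31 to -1.78 and -1.98 to -0.82 in the 17 alternatives. Over 24 named genes, 5 of 405 alternative values turned sign, all in genes not called as reported. Decr2 was at 0.011 with the integrity ratio as a covariate and between -0.202 (without replicate 3) and 0.058 (without replicate 1) with a pair left out, and Abcd2 between -0.026 (without replicate 3) and 0.420 (without replicate 1). Etfdh was at -0.00203 when its probe sets were averaged and at -0.16 in the covariate fit. Without the replicate block the members called were 4 lower and 1 higher, the same genes, 500 genes passed over the table and 4 neighbouring genes were higher, Plin2 not among them. With pairing as a random effect 3 members and 5 neighbouring genes were higher.

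Against 739 genes in all, 1305 passed among genes with a mean log2 level above 5, 1497 with trend and robust eBayes, 40 without moderation, 2 with the covariate and 243 to 929 with a pair left out (243 without pair 4, 286 without pair 2, 320 without pair 1 and 346 without pair 3). Quantile normalization turned 543 lower and 196 higher genes into 382 and 309. Members called lower (4) include the 3 chosen on this contrast, whose calls support nothing. The count was 0 without moderation (13 members at an unadjusted p under 0.05 by limma), 1 with the covariate (4 members at an unadjusted p under 0.05), 3 with quantile normalization and with means of probe sets, and 3 to 5 with a pair left out. It was 5 with pairing as a random effect, above the level of 5, with the pseudocount, with trend and robust eBayes and with array weights. Acsl3 was the added gene in those settings and without pair 5. Apart from the chosen genes 1 was lower as reported, Pecr. Of the 17 alternatives, Pecr was called in 9 and Acsl3 in 6. Pecr was lost without moderation, with the covariate, with quantile normalization and with means of probe sets. It was also lost without pair 1, 2, 3 or 4. Members called higher (1, Eci2) were 0 with any pair left out, with median centring, without moderation, with the covariate and with adjustment over all probe sets. They were 3 with quantile normalization, with means of probe sets and with array weights, 5 with trend and robust eBayes, 6 with a pseudocount of 16 and 7 above the level of 5. Those 7 were Acadm, Acadvl, Acot7, Cpt2, Eci2, Hadh and Slc25a20. Apart from quantile normalization (309 genes), the numbers of all genes called higher in these settings are not given here. These counts are therefore not a result about the members. Of all 18193 genes, 11472 lay below the level of 5, against 5 of the 35 members. Neighbouring genes called lower (3) were 5 with trend and robust eBayes, 0 without moderation and with the covariate, and 2 to 3 with a pair left out. Those called higher (2) were 7 with quantile normalization, above the level of 5, with the pseudocount and with trend and robust eBayes, 4 with array weights, 1 with adjustment over all probe sets, 0 without moderation and with the covariate, and 0 to 4 with a pair left out. Members that differed between pairs (1, Abcd2) were 0 above the level of 5, where Abcd2 itself is left out, and 0 to 1 with a pair left out, with 0 without pair 5. The covariate differs between the groups, so that fit estimates every group difference less precisely. Where no construction is named, the cause was not tested. Low signal limits what can be said of Decr2, Acox3, Ehhadh, Crat and Abcd2, the 5 members below a mean log2 level of 5.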
